A study of Mus musculus with 2 samples.

Results

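The mouse lncRNA array used to compare normal and paraquat-treated lungs carries a block of probes for noncoding transcripts of the RefSeq collection, whose accessions begin with NR. The probes described here are those named ASMM9PARTA044906 to ASMM9PARTA045297 in the array files, leaving out control probes. There were 392 of them among the 59709 probes of the array other than control and negative probes, each printed as 1 spot. The range was set by the lncRNAs that the study lists as changed, of which NR_003546 is the first probe of the range, NR_015507 lies inside it and NR_028331 is the last. Their place was found by matching the raw intensities listed for each to the spot signals, and each matched exactly 1 spot. A further pair of listed accessions, NR_033197 and NR_036615, matched probes ASMM9PARTA045932 and ASMM9PARTA046117, so all 5 accessions followed the order of the probe numbers. That the probes in between are also RefSeq records was inferred from this order, as the array annotation does not state it. The array files gave 0 of the 392 probes a name other than the probe identifier, and the members between the matched accessions are therefore called by that identifier.

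Male BALB/c mice, 8 weeks old, were injected intraperitoneally on each of 5 days with saline or with 10 mg/kg paraquat, and the lower lobe of the right lung was taken on day 12. The series description gives 10 mice per group, with a mortality of 70% in the paraquat group, while the study's methods give a smaller control group, so the paraquat lungs came from animals among the survivors. RNA of 3 mixed lungs per group was hybridized to 1 array per group. The comparison asked which noncoding RNAs differ between normal and fibrotic lungs. With 1 array per group there is no replicate check of any difference, no test was run, and precision is limited by the number of arrays.

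RefSeq NR records hold several kinds of RNA. Some are transcripts of lncRNA genes, others are splice variants of protein-coding genes that lack a translated reading frame, and others come from transcribed pseudogenes or are small structural RNAs and their host transcripts. In lung, long noncoding RNAs take part in the control of transcription and splicing in epithelial, endothelial and immune cells. Paraquat is a herbicide that is taken up by alveolar epithelial cells and produces reactive oxygen species by redox cycling, and the injury is followed by fibrosis.

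Of the 3 members with an accession, 2 had a gene in the RefSeq table of the GRCm38.p6 assembly. NR_015507 is a transcript of C130036L24Rik, a lncRNA gene on chromosome 1. NR_028331 is a transcript of Zfp672, a protein-coding gene on chromosome 11 for a zinc finger protein, so this member is a noncoding variant of a coding gene. The table did not hold NR_003546, which the study associates with 2410002O22Rik, an older name of Trappc13, a gene for a subunit of the TRAPP complex of vesicle traffic. Whether the probe of NR_028331 also binds the coding transcripts of Zfp672 is not given in the sources used here. C130036L24Rik starts head to head with Ncl, the gene of nucleolin, a nucleolar protein of ribosome production. Their annotated starts lie 129 bases apart, and the 128 bases between them are shown because this shared promoter belongs to the only member known to come from a lncRNA gene. The stretch is chr1:86359456-86359583 of GRCm38.p6, plus strand as read by C130036L24Rik, from RefSeq, with capitals marking the GC box GGGCGG:
C130036L24Rik to Ncl: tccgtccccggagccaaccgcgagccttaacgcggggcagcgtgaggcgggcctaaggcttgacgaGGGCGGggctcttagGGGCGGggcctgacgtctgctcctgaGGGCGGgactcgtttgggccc
The stretch was 71.9% G or C, compared with a median of 53.9% over the same length before the starts of 32851 RefSeq promoters, and held 14 CG pairs. GGGCGG was searched on both strands and found 3 times, all on the plus strand and without overlap, and 27.1% of those promoters held it at least once. The CCAAT box, searched as its 5 letters, was not found on either strand in this window, and 22.2% of the promoters held it. The same was true of TATAAA, held by 6.73%, and of the antioxidant response element core, written TGACNNNGC and held by 6.01%. The array design used mm9, and no position of this assembly was set against it.

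Signals are the scanner software's background-subtracted and detrended spot intensities. Differences are the paraquat minus the control log2 signal after quantile normalization over 59625 probes. Before this step the median log2 signal of these probes was 5.43 for control and 4.60 for paraquat. A probe is called detected when Feature Extraction marked its spot as well above background. None of the 392 spots was marked as an outlier on either array, and 0 spots of the arrays were saturated. The software gives each spot an error, and for the members detected on both arrays the error of the log2 difference built from it was between 0.204 and 0.408, with a median of 0.210. A second measure came from 15 reference genes with 14 to 20 usable spots each, for which the SD of the difference over single spots ran from 0.137 to 1.26, with a median of 0.190. The SD of 1.26 belonged to the gene with signals of 192 (control) and 150 (paraquat), which on the control array was the closest in brightness to the accession-tied members. The genes closest to those members on the paraquat array, at 943 and 360, had SDs of 0.187 and 0.42. The dimmest reference gene, with signals of 20.8 (control) and 29.9 (paraquat), had an SD of 1.09. Its scanner errors per spot were 0.41 and 0.20, so the spot scatter of dim members can be wider than their scanner error. A rise or a fall here means a higher or lower signal on the paraquat array. Neither error covers mice, RNA preparations or hybridizations. Lists of 16 markers of lung cell types and of 32 known noncoding RNA genes had 0 members with a name on the array, so the labelled tissue and the cell makeup of the lungs were not checked, and fewer cells of a type and less RNA per cell cannot be told apart.

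The 3 members with an accession all had higher signals on the paraquat array. They were chosen through the study's list of changed lncRNAs, so their rise is a description. The signal of NR_003546 was 127 for control and 930 for paraquat. Its log2 difference was 3.67 with a scanner error of 0.21, or 12.7-fold. NR_028331 measured 116 and 899, which is 13.4-fold or 3.75 on the log2 scale. NR_015507 measured 87.9 and 354, which is 7.37-fold or 2.88 on the log2 scale. Each of these differences was larger than 2 SD of the reference gene with the widest spots, but for NR_015507 this did not hold with no normalization (2.01), normexp background correction (2.24) or no background subtraction (2.45). The study had listed these members at 5-fold or more on the same arrays, so the comparison with the SD adds no support. The folds depended on the scaling. Without normalization between the arrays they were 7.32-fold, 7.72-fold and 4.03-fold, so NR_015507 then passed 2-fold but not 5-fold. The spots lay in columns 66, 128 and 117 of the 164 columns of the array.

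Of the 392 members, 248 were detected on the control array (63.3%, exact binomial 95% interval over probes 58.3 to 68.0) and 244 on the paraquat array (62.2%, 57.2 to 67.1). Over all probes these shares were 62.7% and 58.6%. The intervals treat probes as independent draws and cover neither mice nor arrays. Both arrays detected 220 members (56.1%), 28 were detected on the control array only and 24 on the paraquat array only, and 120 on neither. Detected on the control array only were 8.61% of all probes and 7.14% of the members, and on the paraquat array only 4.47% and 6.12%. More members were thus lost than gained on the paraquat array, as over all probes, but by a smaller margin. The signals of the 392 members ran from 3.86 to 88514 for control, with a median of 49.8, and from 2.64 to 75542 for paraquat, with a median of 28.4.

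**Figure D1:**
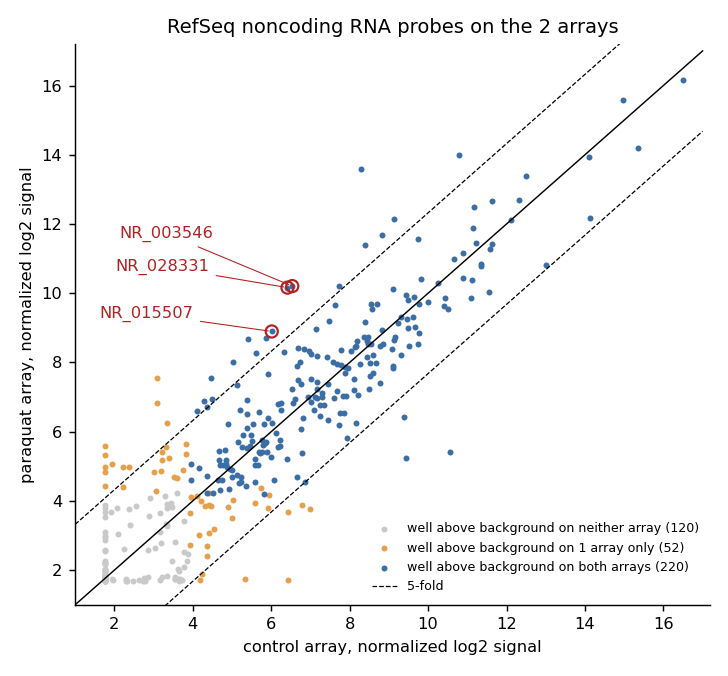
Normalized log2 signal of the 392 RefSeq noncoding RNA probes on the control array (x axis) and the paraquat array (y axis), coloured by the arrays on which the probe was well above background, with circles around the 3 members tied to an accession. The solid line marks equal signal and the dashed lines 5-fold, and more detected members lie beyond the upper dashed line (29) than beyond the lower one (11).

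The differences were centred near 0, and the upper tail held a larger share of the members than of the array. Over the 272 members detected on at least 1 array, the median log2 difference was -0.01, with 133 members above 0 and 139 below 0, and 158 (58.1%) differed by less than 2-fold. Over all 40078 probes detected on at least 1 array the median was -0.10, and 62.8% differed by less than 2-fold. The SD of the log2 difference was 1.53 for the members and 1.37 for all probes. Across the 220 members detected on both arrays, normalized log2 signals had a Pearson's r of 0.846 and a Spearman's rho of 0.814 between the arrays, against 0.917 and 0.869 across 32274 probes of the whole array. These correlations run across probes of the same pair of arrays and describe these arrays only. Of the members detected on both arrays, 131 (59.5%) differed by more than 2 scanner errors, 67 of them upwards and 64 downwards, and over all probes the share was 57.6%.

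At 5-fold or more, 29 of the 272 detected members (10.7%) were higher on the paraquat array, where the background over all detected probes was 5.54%. Lower by 5-fold or more were 11 members (4.04%), where the background was 4.56%. At 2-fold, 66 members (24.3%) were higher and 48 (17.6%) lower, against backgrounds of 18.2% and 18.9%. The share of large rises was thus above that of the array, and the share of large falls was near it. Without the 3 accession-tied members, 26 of 269 (9.67%) were at least 5-fold higher. Without normalization between the arrays the split turned, with 13 members (4.78%) at least 5-fold higher and 22 (8.09%) lower, while over all detected probes the median log2 difference moved from -0.10 to -0.89. The shares over all detected probes were then 2.48% higher and 10.4% lower, so the members still held more rises and fewer falls than the array. No test of these shares was run, because members of 1 pair of arrays are not replicates.

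The next 820 numbered probes, which end at NR_036615 and thus also lie between accession-tied RefSeq probes, were set beside the range. Its accession-tied probes, NR_033197 and NR_036615, are listed by the study as lower after paraquat, so the listing adds falls to this run. Of 819 later probes with an unflagged spot, 571 were detected on at least 1 array. At 5-fold, 31 of these (5.43%) were higher and 38 (6.66%) lower, against backgrounds of 5.54% and 4.56%. Without the accession-tied probes, 36 of 569 (6.33%) were lower. With detection on both arrays, 17 of 457 later probes (3.72%) were at least 5-fold higher, and 3.68% of all 571 were higher when dim signals were set at the lowest detected one. The share of rises in the later probes was thus near the array under the first filter and somewhat above it under these stricter ones. Their share of falls was above the array under each filter. With detection on both arrays it was 2.41% against 1.78%, and 1.98% without the accession-tied probes. With dim signals raised it was 2.98% against 2.04%. The difference between the later probes and the range was not tested. Detection was alike, at 69.7% of the later probes and 69.4% of the members on at least 1 array. Within the range, 8 of 93 detected members before NR_015507 and 21 of 179 from NR_015507 on were at least 5-fold higher, with 2 and 9 lower. The backgrounds over all detected probes were 5.54% higher and 4.56% lower. The first count of rises includes NR_003546 and the second NR_015507 and NR_028331, which the study lists as changed, so the split is partly set by that list.

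Dim spots made up part of both counts. Over members detected on both arrays, 18 of 220 (8.18%) were at least 5-fold higher, against a background of 2.77%, and 4 (1.82%) were lower, against 1.78%. Without the accession-tied members, 15 of 217 (6.91%) were higher. With signals not well above background raised to the lowest detected signal of their array, 21 members (7.72%) were higher and 8 (2.94%) lower, against 3.07% and 2.04%. The share of rises stayed above that of the array under each of these filters.

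The differences also moved with the position of the spot on the array, and the part of position in them was not tested. Detected members in columns 1 to 64 had a median log2 difference of 0.60, and those in the columns above 80 had -0.29. Over all detected probes these medians were 0.39 and -0.29. In columns 1 to 64, 16 of 100 detected members were at least 5-fold higher and 4 lower, against backgrounds of 10.3% and 4.55%. At 2-fold, 39 were higher there, where the background was 32.8%. In the columns above 80, 11 of 141 (7.80%) were higher and 5 (3.55%) lower, against 2.58% and 4.42%, and 19 were at least 2-fold higher, where the background was 8.96%. A local median was then subtracted, taken over at most 50 of the closest detected probes on the array with a like signal. After this, 23 members (8.46%) were at least 5-fold higher and 12 (4.41%) lower, against 3.7% and 4.07%. Without the accession-tied members, the shares of rises were 6.47% in the columns above 80 and 7.43% after the subtraction. These counts include members detected on the paraquat array only, which passed the filter through the array where they are high. Over members detected on both arrays, 8 of 73 in columns 1 to 64 were at least 5-fold higher and 1 was lower, against backgrounds of 5.17% and 1.72%. In the columns above 80, 8 of 122 (6.56%) were higher and 2 (1.64%) lower, against 1.36% and 1.85%. After the subtraction 16 of 220 (7.27%) were higher and 7 (3.18%) lower, against 2.01% for each direction. Without the accession-tied members, the rises numbered 8 of 73, 6 of 120 and 13 of 217. This combination of filters was chosen after seeing the data.

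**Figure D2:**
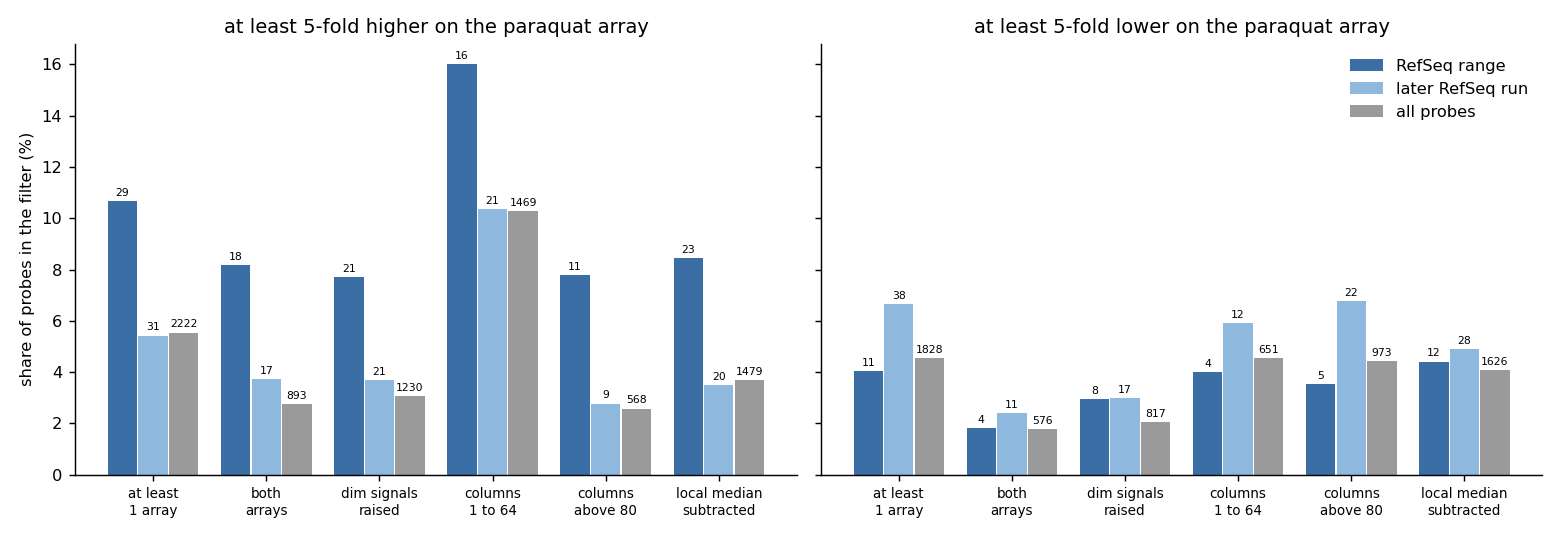
Share of probes (y axis, percent) at least 5-fold higher (left) or lower (right) on the paraquat array, for the RefSeq range, the later run of RefSeq probes and all probes, under 6 filters or position settings (x axis), with the number of probes above each bar. The RefSeq range has the tallest bar in each group on the left (16% in columns 1 to 64, 8.18% on both arrays). On the right its bars lie on either side of those of all probes. Examples are 2.94% against 2.04% with dim signals raised and 3.55% against 4.42% in the columns above 80.

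**Figure D3:**
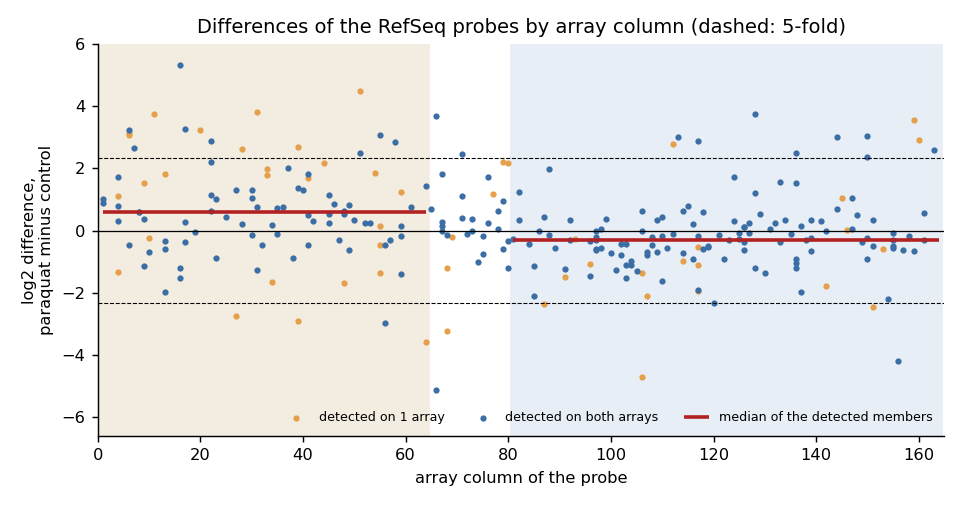
Log2 difference of the detected members (y axis) against the array column of their spot (x axis), with shading over columns 1 to 64 and the columns above 80 and red lines at the median of the detected members on each side. The median is 0.60 on the left side and -0.29 on the right side, and members beyond the upper dashed 5-fold line occur on both sides, 16 on the left and 11 on the right.

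Of the 220 members detected on both arrays, 147 had a difference of the same sign under quantile normalization and 5 other scalings, and 47 of these were higher and 100 lower on the paraquat array. The scaling without normalization moved the median log2 difference of the members detected on at least 1 array from -0.01 to -0.83. Such a shift takes small rises out of the 147, so the split leans to falls. Under quantile normalization alone the 220 members divided into 107 above 0 and 113 below. The 10 largest rises among the 147 include the 3 accession-tied members. The largest was that of ASMM9PARTA044986, whose signals were 422 (control) and 11403 (paraquat), a log2 difference of 5.31 or 39.6-fold. Over the scalings the log2 difference lay between 4.75 and 5.68. ASMM9PARTA044952 was bright on both, with signals of 2174 and 15251 (9.32-fold). ASMM9PARTA045091 had signals of 748 and 3951 (8.18-fold), and ASMM9PARTA045144 had 454 and 2245 (8.09-fold). These 4 members were well clear of the background on both arrays, and after the local correction their log2 differences were 4.68, 2.73, 3.38 and 2.82.

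The other named rises started from dim control spots. ASMM9PARTA045069 had signals of 56.8 and 302 (9.68-fold), ASMM9PARTA045035 had 28.9 and 136 (8.49-fold), and ASMM9PARTA045152 had 43.1 and 191 (8.05-fold). ASMM9PARTA045069 lay in column 17, and its log2 difference of 3.28 became 2.17 after the local correction, which is under 5-fold. After that correction ASMM9PARTA045035 and ASMM9PARTA045152 were at 2.49 and 3.21, which is above 5-fold. Without normalization, ASMM9PARTA045069 was 5.32-fold higher, but ASMM9PARTA045035 (4.70-fold) and ASMM9PARTA045152 (4.43-fold) were under 5-fold. With normexp the log2 differences of ASMM9PARTA045069, ASMM9PARTA045035 and ASMM9PARTA045152 were 2.17, 1.68 and 1.90, each under 5-fold. The other 8 members that were detected on both arrays and at least 5-fold higher ranged from 5.12-fold to 7.28-fold. Of all 18 such members, 8 lay in columns 1 to 64, another 8 lay above column 80, 15 were at least 5-fold higher after the local correction and 6 without normalization.

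The falls were fewer and 3 of them were steep. The signal of ASMM9PARTA045238 was 1889 for control and 32.0 for paraquat. This log2 difference of -5.13, or 35.1-fold, was the widest fall in the range. ASMM9PARTA044944 measured 912 and 28.5 (18.1-fold lower, log2 difference -4.18), and ASMM9PARTA045050 measured 881 and 62.8 (7.78-fold lower, log2 difference -2.96). The first and second of these had paraquat signals below 41.2, the lower quartile of the members detected on both arrays, and that of ASMM9PARTA045050 lay above it. Under the 5 scalings their log2 differences stayed at or below -2.84. With normexp background correction and an offset of 50, which compresses dim signals, they were -3.90, -2.93 and -2.30. ASMM9PARTA045257 had signals of 161 and 17.7, which is 5.04-fold lower, and its log2 difference of -2.33 became -1.62 after the local correction. The remaining 6 of the 10 largest falls were under 5-fold, from 3.11-fold for ASMM9PARTA045049 to 4.64-fold for ASMM9PARTA044945, whose signals were 9122 and 1455.

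**Figure D4:**
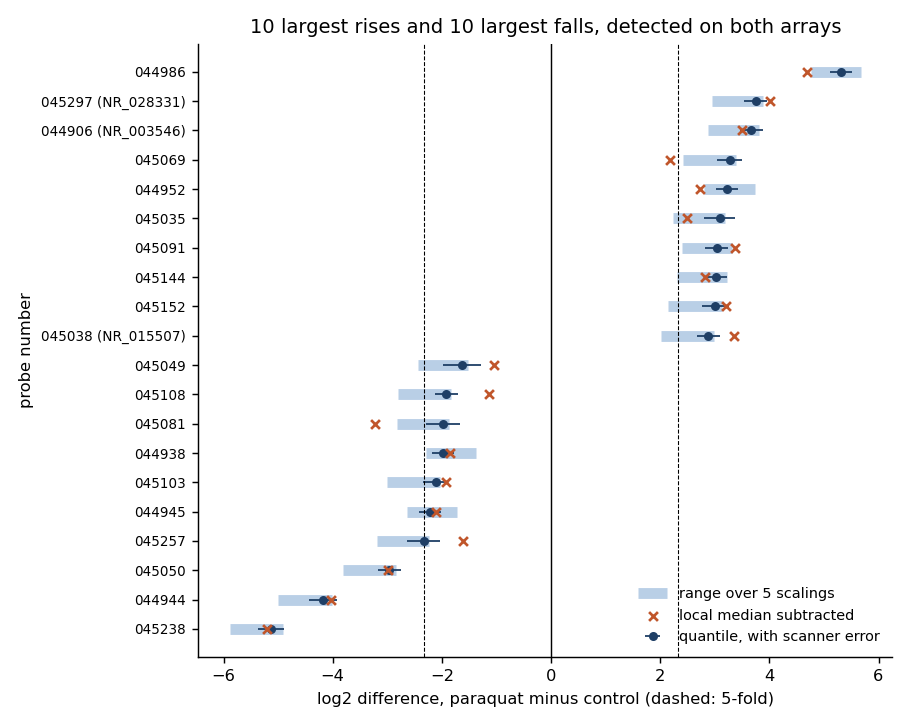
Log2 difference, paraquat minus control (x axis), of the 10 largest rises and the 10 largest falls among members detected on both arrays whose sign held under the scalings, with the probe number on the y axis. Points show quantile-normalized values with the scanner error, bars the range over 5 other scalings and crosses the value after subtraction of the local median, and all 10 rises but only 4 falls pass the dashed 5-fold lines, from 5.31 for 044986 to -5.13 for 045238.

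For members detected on 1 array only, the fold is a lower bound on the quantile-normalized scale, computed against the lowest detected signal of the other array, and it is not a bound under other scalings. The strongest gain was that of ASMM9PARTA045281, whose signals of 10.6 (control) and 136 (paraquat) made it at least 12.5-fold higher. ASMM9PARTA045177 had signals of 10.7 and 83.3 (at least 7.59-fold), ASMM9PARTA044984 had 12.9 and 56.4 (at least 5.09-fold), and ASMM9PARTA045175 had 18.3 and 37.0 (at least 3.31-fold). Without normalization the signals of these last members differ by less than the stated bounds, 4.38-fold and 2.02-fold, and the log2 difference of ASMM9PARTA045175 was 0.75 after the local correction. With normexp the log2 differences of these 4 members were 1.81, 1.23, 0.60 and 0.53, so each kept its direction at a smaller size. Among members detected on the control array only, ASMM9PARTA045101 had signals of 175 and 10.7 (at least 7.51-fold lower), and ASMM9PARTA045159 had 152 and 11.5 (at least 6.55-fold). ASMM9PARTA045241 had 119 and 2.80 (at least 5.12-fold), and ASMM9PARTA044919 had 117 and 10.1 (at least 5.07-fold). With normexp the log2 differences of these 4 lower members were -1.43, -1.09, -1.28 and -1.07, so each kept its direction at a smaller size. After the local correction they were -3.64, -3.03, -4.04 and -2.08. The last is smaller than its bound, which is -2.34 on the log2 scale. The 11 members counted as at least 5-fold higher with detection on 1 array had bounds from 1.43-fold to 12.5-fold, and the 7 counted as lower had bounds from 1.08-fold to 7.51-fold.

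Of the 5 members with the highest signals, 3 differed by less than 2-fold and 2 were lower by more. ASMM9PARTA044954 had signals of 88514 (control) and 75542 (paraquat), a log2 difference of -0.33. ASMM9PARTA045182 had 34018 and 48006, a log2 difference of 0.60 that reached 1.42 with the 75th percentile shift, and ASMM9PARTA045117 had 19070 and 14604, a log2 difference of -0.17. The signs for ASMM9PARTA044954 and ASMM9PARTA045117 turned under other scalings, whose values reached 0.69 and 0.54. ASMM9PARTA045028 was lower on the paraquat array, at 43929 and 17524, a log2 difference of -1.14 that was -0.40 with the 75th percentile shift. ASMM9PARTA044938 was among the largest falls as well, at 19393 and 3964, with a log2 difference of -1.98 that lay between -2.29 and -1.37 over the scalings. The brightness of a probe depends on its sequence, so these signals do not rank the transcripts.

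The authors' processed values hold 172 of the 392 members (43.9%), of which 166 were detected on both arrays and 6 on 1 array. They include 75.5% of the members detected on both arrays, and the median control signal of the members they list was 282, against 69.2 for the members detected on both arrays that they do not list. Among the 172 members, 14 (8.14%) were at least 5-fold higher and 3 (1.74%) lower, where the shares over the detected probes of that table were 2.73% and 1.05%. The 14 include the 3 accession-tied members, which set the range because the study listed them as changed from these values. The share of rises is raised by that choice. The median absolute gap between these log2 differences and those computed here was 0.03. Of the 3 steep falls, ASMM9PARTA045238 is in that table, at a log2 difference of -4.90, and the other two are not.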

How the data were processed

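The authors deposited the spot intensities of each 1-colour Agilent array (mm9 design) as Feature Extraction 10.7.3.1 gave them, background-subtracted and detrended per array but not normalized between arrays. Marks of detection and outlier spots, deposited as 0 or 1, were used as given. The authors also deposited values of 14331 probes, which behave as log2 values and, per the paper, were quantile-normalized in GeneSpring GX. Here, spots marked as outliers and negative probes were left out, log2 signals were averaged per probe, and quantile normalization put the 2 arrays on 1 scale over 59625 probes. The filter was detection on at least 1 array. Members and lists were chosen with earlier results of these data known. Named are members tied to an accession (raw intensities within 0.006 of 1 spot), the 10 largest rises and falls detected on both arrays with 1 sign under every scaling, the 5 brightest, and the 4 with the largest bounds per direction among those detected on 1 array. Other scalings were a 75th percentile shift, a median shift, none, loess and quantile over detected probes. Further alternatives were normexp (offset 50), no background subtraction, other filters, array position and flagged spots kept. The local correction used the nearest detected probes within 1 log2 unit of signal, at most 50, and fewer where a limited neighbourhood held fewer. Tested on simulated data for paraquat against control, in which 200 of 59625 probes were shifted by 3 log2 units, quantile normalization recovered 100% at 5-fold with 0 false calls. All shifted probes were detected on both arrays, and the simulated noise was far below the 5-fold cut, with no position effect. The outcome was thus close to fixed in advance. It checks the code and does not measure false calls on these arrays. Tools were R 4.3.3 (limma 3.58.1 for normexp) and Python 3.11.15 (pandas 2.3.3, numpy 2.4.6, statsmodels 0.14.6, scipy 1.17.1).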

Additional observations from a re-analysis of the deposited data

How the results depend on the processing

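Each group had 1 array, so no setting could be checked on replicates, and folds of spots near the background depend on how that background is treated. No paired analysis was possible because each group has 1 sample. Counts of members at least 5-fold higher, 5-fold lower, 2-fold higher and 2-fold lower stayed within 1.5 times of 29, 11, 66 and 48 under the 75th percentile and median shifts, loess, quantile over detected probes, no filter on dim probes, dim signals raised to the lowest detected signal, the local median correction and flagged spots kept. They were 13, 22, 40 and 120 with no normalization, 7, 2, 32 and 22 with normexp, and 9, 3, 35 and 24 with no background subtraction. With no normalization the member shares were 4.78%, 8.09%, 14.7% and 44.1%, against 2.48%, 10.4%, 9.13% and 45.4% over all detected probes. For normexp they were 2.57%, 0.74%, 11.8% and 8.09%, against 0.86%, 0.60%, 7.52% and 6.68%. For no background subtraction they were 3.31%, 1.10%, 12.9% and 8.82%, against 1.06%, 0.78%, 9.22% and 8.14%. Over fewer members, the counts were 14, 3, 32 and 20 in the authors' processed values, 18, 4, 42 and 29 with detection on both arrays, 11, 5, 19 and 29 in the columns above 80, and 16, 4, 39 and 14 in columns 1 to 64. In this order the 2-fold member shares were 18.6% and 11.6%, 19.1% and 13.2%, 13.5% and 20.6%, and 39% and 14%. Over all probes they were 16.2% and 10.4%, 15.2% and 13.6%, 8.96% and 21.0%, and 32.8% and 15.3%. In a choice made after seeing the data, members detected on both arrays numbered 8 higher and 1 lower by 5-fold at columns 1 to 64, 8 and 2 beyond column 80, and 16 and 7 after the local median correction. The median log2 difference of the members was -0.83 with no normalization, -0.29 in the columns above 80 and 0.60 in columns 1 to 64, and moved by less than the 0.19 spot SD otherwise. The columns above 80 held 137 members detected in control and 126 in paraquat. Of 341 log2 differences of the 32 named members under other settings, 213 moved by less than 0.19 and 128 by more, and 0 of those of at least 2-fold turned. The named largest rises and falls had been chosen for 1 sign under every scaling, so a turn under a scaling was not possible for them. The causes of the moves were not tested.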

Other observations

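Some members with higher signals on the paraquat array carry consecutive probe numbers, which were noticed after their values were seen. ASMM9PARTA044984, ASMM9PARTA044985 and ASMM9PARTA044986 had log2 differences of 2.92, 3.12 and 5.31, and their spots lay in columns 160, 6 and 16 of the array. The first and second of these were detected on the paraquat array only, so their values are not exact folds. After the local median correction the 3 values were 3.08, 0.73 and 4.68. ASMM9PARTA045175, ASMM9PARTA045176 and ASMM9PARTA045177 had log2 differences of 1.81, 2.84 and 3.75, in columns 13, 58 and 11, with the first and last detected on the paraquat array only, and after the correction they were 0.75, 2.49 and 2.81. ASMM9PARTA045143 and ASMM9PARTA045144 had log2 differences of 2.35 and 3.02 and were detected on both arrays. Over the range as a whole, 63 of 123 pairs of consecutive members detected on both arrays had the same sign. Whether probes with consecutive numbers lie in 1 gene is not given in the sources used here.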
